A study of Mus musculus with 24 samples.

Results

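The genes described here are the chemokine receptors through which B cells are guided in lymphoid tissue: Ccr7, Cxcr5, Cxcr4, Ccr6, Cxcr3, Cxcr7 and Ccrl1. They were chosen by name, as 7 of the 23420 genes in the deposited files, and each was read in all 24 libraries. Cxcr7 and Ccrl1 are older symbols, and the annotation calls these genes Ackr3 and Ackr4.

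Chemokine receptors are G protein-coupled receptors that pull a cell up a gradient of a small secreted protein. CCR7 responds to CCL19 and CCL21 of the T zone, CXCR5 to CXCL13 of the follicle, and CXCR4 to CXCL12, which is made by stromal cells of the germinal center (GC) dark zone. CCR6 responds to CCL20 and CXCR3 to the interferon-induced CXCL9, CXCL10 and CXCL11. CXCR7 and CCRL1 are atypical receptors, which bind chemokines and take them up without the usual G protein signal: CXCR7 takes up CXCL12, and CCRL1 takes up CCL19, CCL21 and CCL25.

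Messenger RNA was sequenced from sorted splenic B cells of BALB/c mice in 8 groups of 3 libraries. The groups were naive cells, cells activated in vitro for 4 h, 12 h and 24 h, cells activated in vivo, and GC cells of an early, a peak and a late stage. The labels give all groups the same strain and tissue, and they name no genotype, stimulus, immunogen, day, age, animal or culture. The scatter of the 3 libraries in a group may therefore be technical, and each p reflects only such scatter. For fold changes it is shared over all 8 groups and in part over genes. Levels are given as log2 of a CPM-like value, as deposited, so that 0 stands for 1 CPM (a share of all counted reads), and -5 is taken as the floor. The depth of each library is unknown.

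Levels of defining markers followed the group labels. The summed level of 8 B cell markers ran from 2990 to 8470 CPM over all libraries, and that of 8 GC B cell markers from 1690 to 2360 CPM in GC libraries against at most 146 CPM elsewhere. Markers of other cells were not absent. The 11 macrophage and monocyte markers summed to 497 to 2150 CPM in late GC libraries against 120 to 319 CPM in early and peak ones, and to 52.7 to 59.1 CPM in naive ones. Neutrophil markers (8) summed to 87 to 1100 CPM in late GC libraries, 27.7 to 129 CPM in early and 23.2 to 98.6 CPM in peak ones. Erythroid markers (7) summed to 753 to 1420 CPM in late, 315 to 765 CPM in early and 176 to 210 CPM in peak GC libraries. NK cell markers (8) summed to 91.9 to 235 CPM in late, 45.5 to 51.1 CPM in early and 44.9 to 63.3 CPM in peak GC libraries. Transcripts of the Y-linked genes Ddx3y and Eif2s3y were under the floor in every GC and in vivo activated library and between 4.50 and 5.77 log2 in every naive and in vitro library. In each comparison of a GC or in vivo activated group with a naive or in vitro group, that difference in origin and the cell state cannot be told apart. This Y-linked difference does not enter comparisons among GC and in vivo activated cells, or among naive and in vitro cells. Other differences in origin between those groups are not given by the labels and were not tested.

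Promoter stretches are shown for Ccr6 and Cxcr7, which were low in GC cells, and for Cxcr4, which was high there and fell furthest in culture. Each runs from 150 bases before to 30 bases after the annotated start (RefSeq, GRCm38.p6), 5′ to 3′ on the strand of the gene, and capitals mark a motif that a search found. The Ccr6 stretch is chr17:8235893-8236072 on the plus strand, with the octamer ATGCAAAT on the other strand in capitals, starting at position -68 relative to the start. The Cxcr4 stretch is chr1:128592270-128592449 on the minus strand and the Cxcr7 stretch chr1:90203830-90204009 on the plus strand, both with TATAAA in capitals.
Ccr6: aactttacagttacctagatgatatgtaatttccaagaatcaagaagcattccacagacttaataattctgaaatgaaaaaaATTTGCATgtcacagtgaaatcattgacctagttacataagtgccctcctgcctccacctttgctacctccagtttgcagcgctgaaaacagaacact
Cxcr4: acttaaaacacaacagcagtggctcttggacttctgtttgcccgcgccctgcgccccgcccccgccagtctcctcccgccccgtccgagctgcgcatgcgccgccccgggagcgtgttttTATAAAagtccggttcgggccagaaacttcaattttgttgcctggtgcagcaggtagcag
Cxcr7: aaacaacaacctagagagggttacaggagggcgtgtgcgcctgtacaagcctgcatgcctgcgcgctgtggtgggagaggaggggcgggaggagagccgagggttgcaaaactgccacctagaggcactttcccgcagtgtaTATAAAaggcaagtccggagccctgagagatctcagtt
The octamer was found on either strand in 1.74% of 32851 RefSeq promoters of 300 bases, and TATAAA on the sense strand in 8.32%. TATAAA began at position -30 in Cxcr4 and at -8 in Cxcr7. Promoters were found for 5 of the 7 members, and 6 other motifs were searched on both strands: CACCC (in 57.5% of promoters), GTAAACA (3.65%), TCACACC (3.98%), a kappaB motif (50.8%), ACGTG (19.6%) and TTCNNNGAA (8.3%). None of these 6 matched in Cxcr7, CACCC matched once in Cxcr4, and TTCNNNGAA matched at 2 places before the first Ccr6 start, all counted in the window of 300 bases. In the same window a second Ccr6 start, whose stretch is not shown, had no octamer, 2 kappaB matches and 1 ACGTG match. Cxcr3 had 1 kappaB match. Ccrl1 had 2 CACCC matches and 1 each of kappaB, ACGTG and TATAAA. A match describes the letters and is not evidence of a bound factor.

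**Figure D1:**
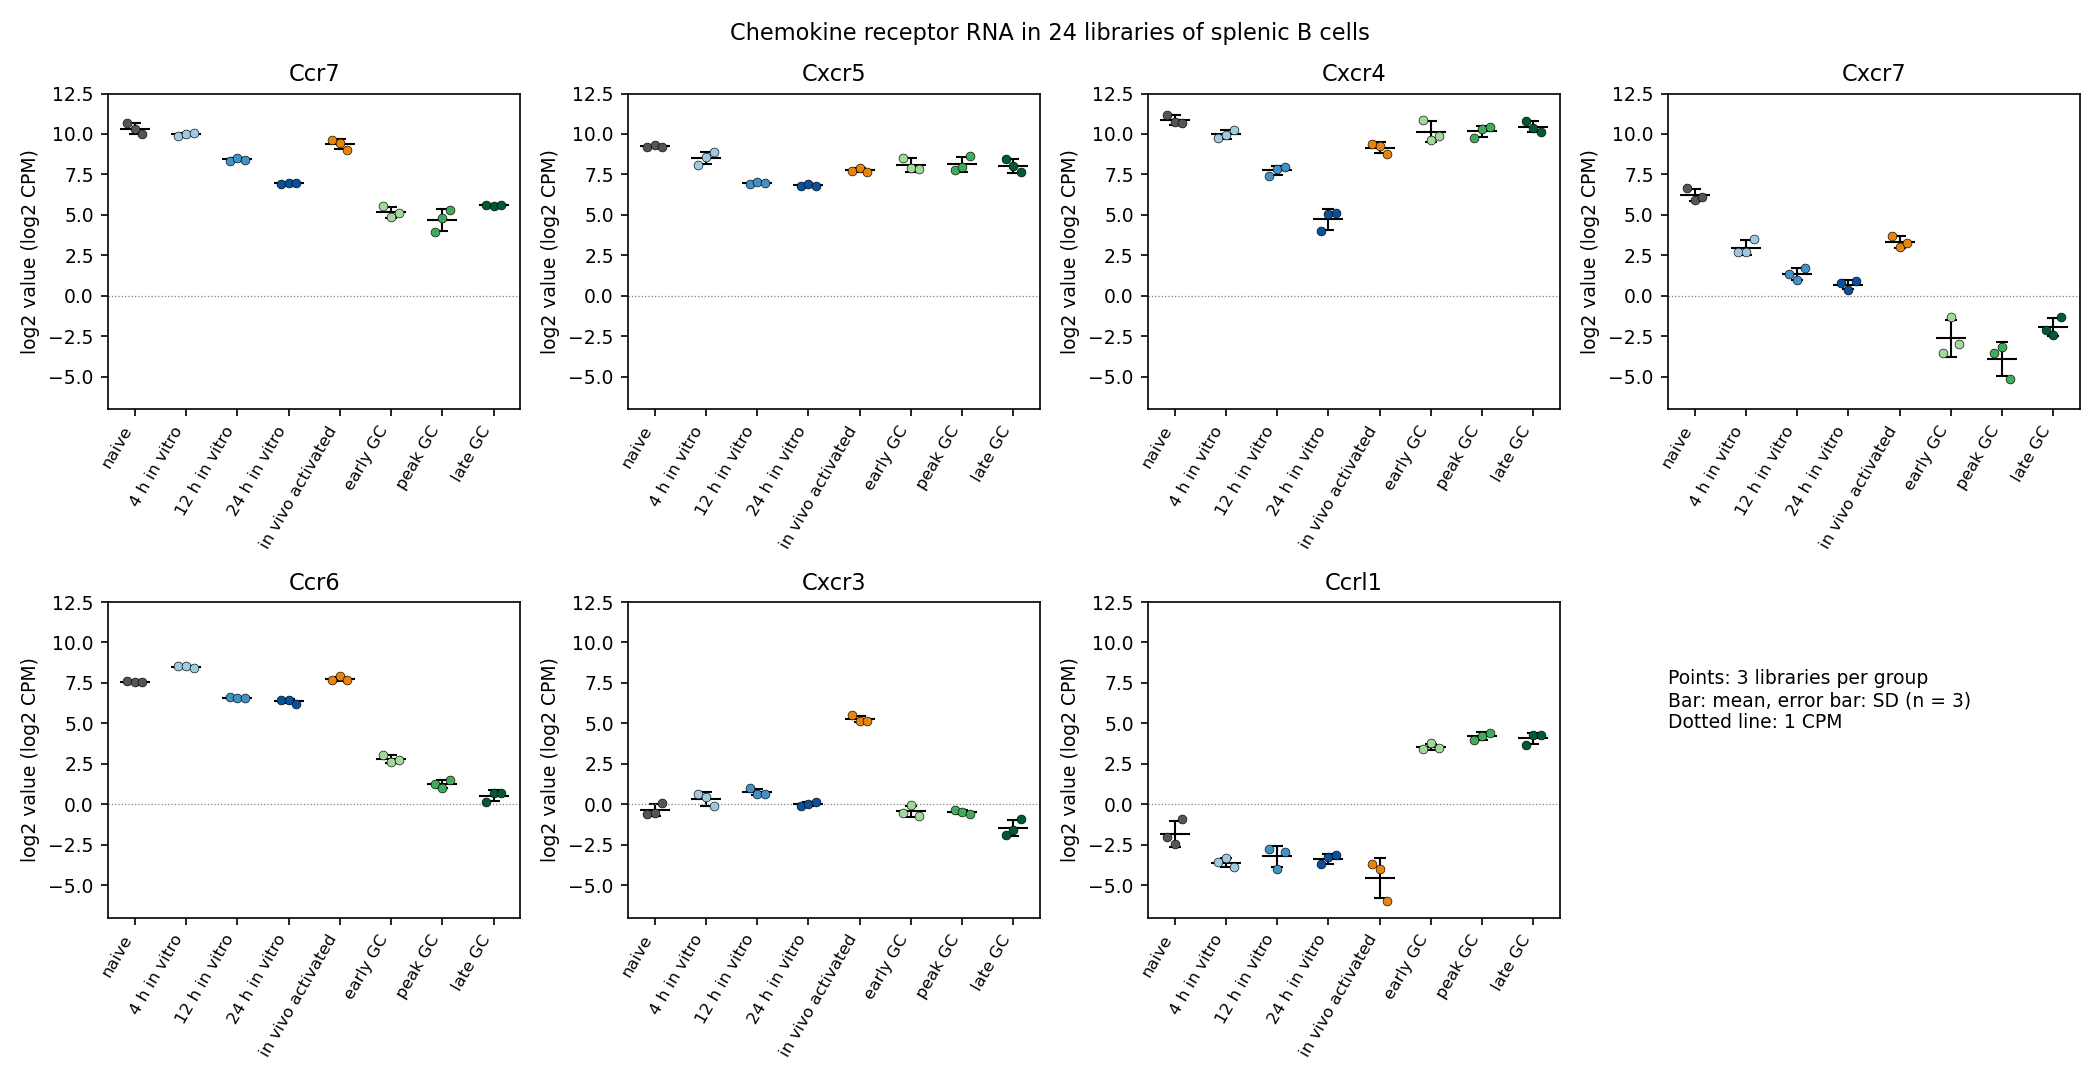
Deposited log2 values (vertical axis, log2 CPM) of the 7 receptors in each of 8 groups, with 1 point per library, the mean as a bar and the SD as an error bar (n = 3). Ccr7 and Ccr6 are lowest in the 3 GC groups, Cxcr4 is lowest at 24 h in vitro, Cxcr3 is high in the in vivo activated libraries (5.15 to 5.50) and Ccrl1 in the GC libraries (3.44 to 4.43).

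Ccr7, the receptor that draws B cells toward the T zone, was high in naive and recently activated cells and low in GC cells. The naive libraries read 10.66, 10.32 and 10.01 log2. The early GC libraries read 5.54, 4.86 and 5.12, the peak libraries 3.94, 4.80 and 5.31, and the late libraries 5.59, 5.57 and 5.60. Every GC library was thus below every naive library, and peak GC cells were the most uneven. Ccr7 fell by 5.64 ± 0.25 log2 (SE) in peak GC against naive cells (adjusted p = 8.74e-14) and by 4.69 ± 0.25 against in vivo activated cells (adjusted p = 3.47e-12). In these bulk libraries, fewer cells with a receptor's RNA and less of it per cell cannot be told apart.

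In vivo activated cells had Ccr7 at 9.63, 9.46 and 9.04 log2, all under the naive libraries, and it fell by 0.95 ± 0.25 log2 there (adjusted p = 0.00167). In culture the level went down with time. The 4 h libraries read 9.90, 9.99 and 10.04, overlapping the naive ones, and their difference of -0.35 ± 0.25 did not pass the test (adjusted p = 0.198, between 0.034 and 0.535 over the alternatives). It fell between 4 h and 12 h by 1.55 ± 0.25 log2 (adjusted p = 2.32e-05) and between 12 h and 24 h by a further 1.47 ± 0.25 (adjusted p = 5.51e-05), to 6.92, 6.98 and 6.97. Among GC stages the order was late (5.59 ± 0.02, SD, n = 3), early (5.17 ± 0.34) and peak (4.69 ± 0.69), and neighbours in that order did not differ beyond their spread. Late GC cells were higher than peak GC cells by 0.90 ± 0.25 log2 (adjusted p = 0.00944), but without peak library 1 the difference was 0.53 (adjusted p = 0.0506), and the adjusted p ran from 6.40e-04 to 0.108 over all alternatives. In late against peak GC 6 of 10 tested macrophage markers, 6 of 6 neutrophil and 5 of 5 erythroid markers were also higher and none lower. Of the T cell markers 2 of 7 tested were higher and none lower, and of the NK cell markers 3 of 8 and none. Of the dendritic cell markers 3 of 6 tested were higher and 1 lower. Of all genes 12.0% were higher and 20.6% lower there. The part of such RNA in that Ccr7 difference was not tested.

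Cxcr5, the receptor for entry into the follicle, varied the least among the receptors that were expressed in every library. It read 9.22, 9.29 and 9.19 log2 in naive cells, above every other library. Peak GC libraries read 7.80, 7.96 and 8.64, so that Cxcr5 fell by 1.10 ± 0.23 log2 from naive cells (adjusted p = 2.16e-04), and in vivo activated libraries read 7.73, 7.90 and 7.64, where it fell by 1.48 ± 0.23 (adjusted p = 8.16e-06). GC and in vivo activated cells overlapped each other: the early and peak GC means were 0.32 ± 0.23 and 0.38 ± 0.23 above the in vivo activated mean, which did not pass the test (adjusted p = 0.22 and 0.15). The 3 GC stages had means of 8.08 ± 0.41, 8.13 ± 0.45 and 8.02 ± 0.41 (SD, n = 3) and overlapped throughout.

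In culture Cxcr5 fell early and then levelled. At 4 h it fell by 0.73 ± 0.23 log2 from the naive level (adjusted p = 0.00718), a call lost without 4 h library 1 (adjusted p = 0.0531, between 0.00267 and 0.0531 over the alternatives). The 12 h libraries at 6.93, 7.05 and 6.98 and the 24 h libraries at 6.78, 6.88 and 6.80 were the lowest of the series. The step from 4 h to 12 h was a fall by 1.52 ± 0.23 log2 (adjusted p = 1.14e-05), and that from 12 h to 24 h was -0.17 ± 0.23 (adjusted p = 0.55). An end of the annotated gene overlaps Bcl9l on the opposite strand. Bcl9l was at 6.89 ± 0.11 log2 in naive cells and between 4.32 and 5.45 in the other groups, so it was also highest in naive cells. The library kit marks strand, but the strand setting of the counting is not given in the sources used here, and the part of Bcl9l reads in the Cxcr5 values was not tested.

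Cxcr4, the receptor linked to the GC dark zone and to the bone marrow, was high in naive and GC cells and fell furthest in culture. Naive libraries read 11.20, 10.75 and 10.65 log2. Early GC libraries read 10.88, 9.63 and 9.89, peak libraries 9.78, 10.31 and 10.42, and late libraries 10.81, 10.39 and 10.14. All peak libraries were under all naive ones, but the difference of -0.69 ± 0.33 log2 did not pass the test with the spread shared over all groups (adjusted p = 0.0621). It passed in the fit to those groups alone (adjusted p = 0.00694, with a range of 0.00694 to 0.23 over the alternatives). Naive, late, peak, early GC and 4 h cells followed each other in that order of means with no difference between neighbours beyond their spread.

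In vitro, Cxcr4 went from 9.73, 9.96 and 10.24 log2 at 4 h to 7.43, 7.83 and 7.98 at 12 h and to 3.99, 5.05 and 5.14 at 24 h. The 24 h libraries lay far under all others, and Cxcr4 fell by 6.14 ± 0.33 log2 from the naive level (adjusted p = 2.22e-12). The steps from 4 h to 12 h and from 12 h to 24 h were falls by 2.23 ± 0.33 (adjusted p = 1.22e-05) and by 3.02 ± 0.33 (adjusted p = 4.37e-07). The smaller fall at 4 h, by 0.89 ± 0.33 (adjusted p = 0.0204), was lost without naive library 1 (adjusted p = 0.0863) or without 4 h library 1 (adjusted p = 0.0738), with a range of 8.96e-04 to 0.0863 over the alternatives.

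In vivo activated cells held more Cxcr4 than cells at 24 h in vitro, by 4.42 ± 0.33 log2 (adjusted p = 1.06e-09). They read 9.40, 9.28 and 8.75, under every GC library, and Cxcr4 fell by 1.72 ± 0.33 log2 against naive cells (adjusted p = 1.12e-04). Against them early GC cells were higher by 0.99 ± 0.33 (adjusted p = 0.0125) and peak GC cells by 1.03 ± 0.33 (adjusted p = 0.0103). The early GC call was lost without early GC library 1 (0.62, adjusted p = 0.0929), without in vivo activated library 3 (0.80, adjusted p = 0.0603) or with those groups alone (adjusted p = 0.0855), and the peak GC call without in vivo activated library 3 (0.83, adjusted p = 0.0519). The adjusted p ranged from 0.00449 to 0.0929 and from 0.00273 to 0.0519. In early GC against in vivo activated cells 8 of 10 tested macrophage, 6 of 6 neutrophil, 5 of 5 erythroid and 7 of 8 NK cell markers were also higher. In peak GC cells these counts were 4, 6, 5 and 7. In each, 1 macrophage marker was lower and none of the others. Of all genes 33.2% and 34.1% were higher, and 36.4% and 35.0% lower. The part of such RNA in these Cxcr4 differences was not tested.

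Within a library, the log2 difference between 2 receptors sets one direction of guidance beside another. Gene length shifts these differences by a constant, so only their changes between groups are read. Cxcr4 minus Cxcr5 was 1.97, 1.46 and 1.46 in naive libraries and 1.98, 2.35 and 1.78 in peak GC libraries, which overlapped (exact permutation p = 0.20, adjusted 0.23 over 8 tests, two-sided). At 24 h in vitro it was -2.79, -1.83 and -1.66, under every other library. Ccr7 minus Cxcr5 separated GC cells from all others: it was 1.43, 1.03 and 0.83 in naive libraries and -3.85, -3.16 and -3.33 in peak GC libraries, while in vivo activated libraries at 1.90, 1.56 and 1.40 overlapped the naive ones. The exact permutation p for peak GC against naive was 0.10 (adjusted 0.20), which is the smallest that 3 libraries against 3 can give. The same smallest p was reached at 24 h against naive for both differences and in late against early GC for Cxcr4 minus Cxcr5, whose late libraries read 2.38, 2.37 and 2.52 against 2.34, 1.76 and 2.09.

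**Figure D2:**
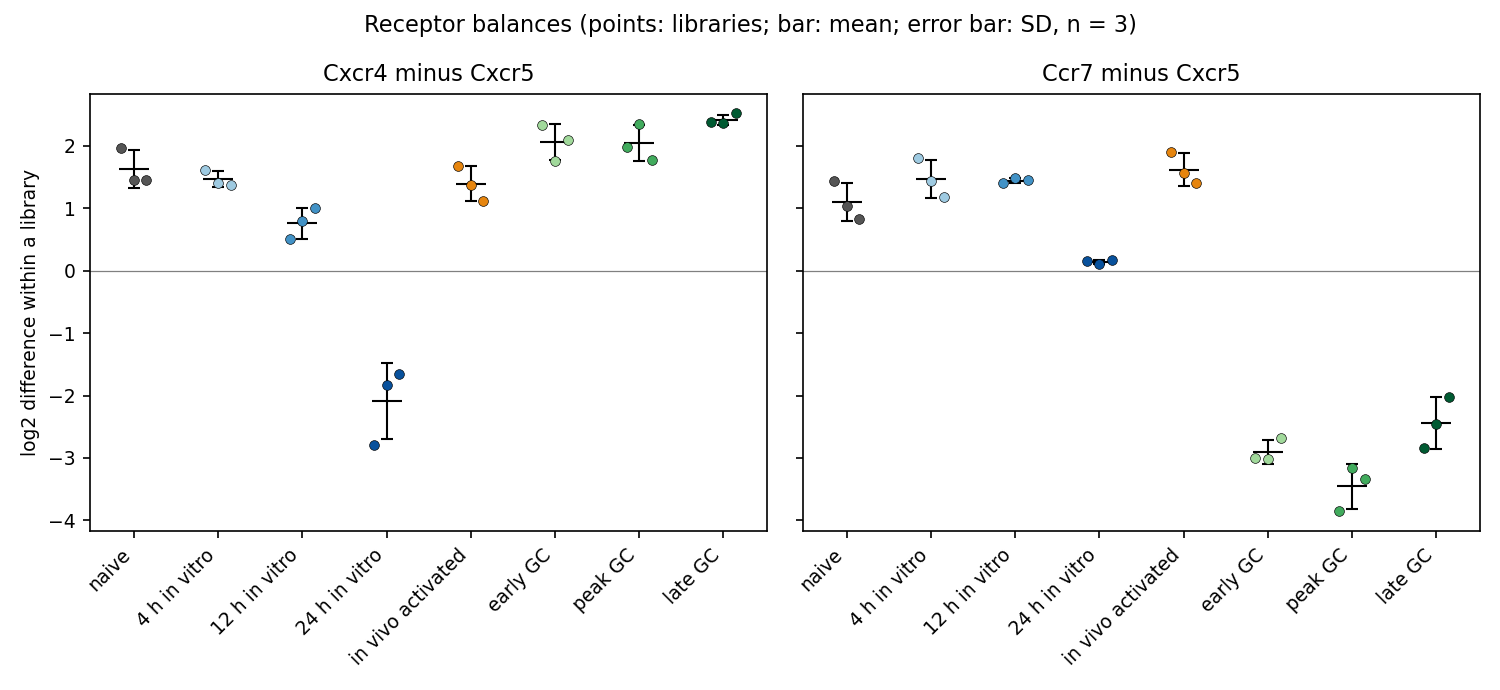
Log2 difference between 2 receptors within each library (vertical axis) in 8 groups, with points for libraries, a bar for the mean and an error bar for the SD (n = 3). Cxcr4 minus Cxcr5 is below 0 only in the 24 h libraries (-2.79 to -1.66), and Ccr7 minus Cxcr5 is below 0 only in the 9 GC libraries (-3.85 to -2.02).

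Divided by exon length, the levels can also be compared between receptors. Cxcr4 made up 52.3 ± 1.75% (SD, n = 3) of the summed CPM per kb of the 7 receptors in naive cells and Ccr7 33 ± 1.82%. In the GC groups Cxcr4 made up 85.4 ± 2.63% (early), 86 ± 2.18% (peak) and 87.8 ± 0.469% (late), with Cxcr5 second in every GC library at means of 8.88% to 11.5% and Ccr7 at 1.79% to 2.81%. A single receptor thus held most of the receptor RNA in each GC library. At 24 h in vitro the order differed: Ccr7 held 42.3 ± 1.27%, Ccr6 23.8 ± 2.43%, Cxcr5 22.8 ± 0.485% and Cxcr4 10.4 ± 3.64%. In vivo activated cells had Ccr7 first at 40.3 ± 1.39% and Cxcr4 second at 37.5 ± 1.96% in all 3 libraries.

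**Figure D3:**
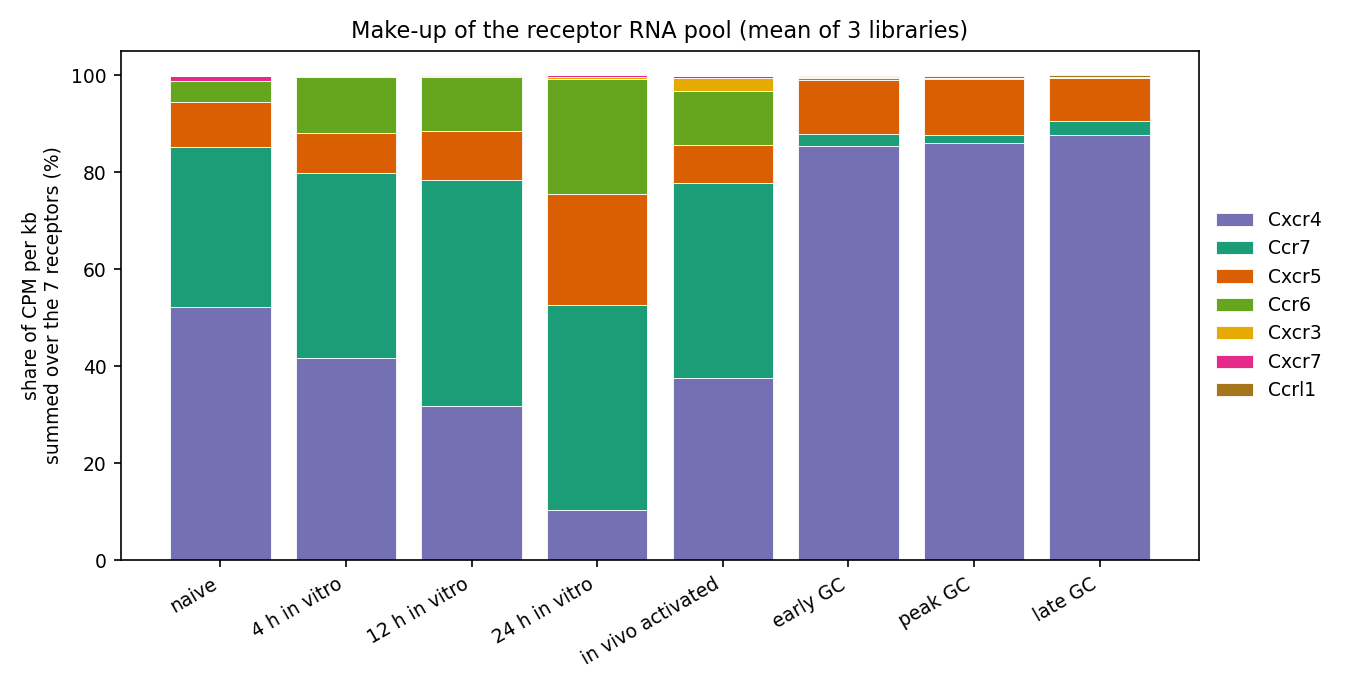
Share of each receptor (vertical axis, percent of the CPM per kb summed over the 7 receptors, mean of 3 libraries) in 8 groups. Cxcr4 takes 52.3% in naive cells, 10.4% at 24 h in vitro and 85.4% to 87.8% in the GC groups.

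Ccr6, a receptor of B cells outside the GC and of some memory B cells, showed a stepwise loss over the GC stages. Naive libraries read 7.60, 7.55 and 7.56 log2 and in vivo activated ones 7.67, 7.90 and 7.67. Early GC libraries read 3.06, 2.6 and 2.71, peak libraries 1.25, 1.03 and 1.52, and late libraries 0.17, 0.73 and 0.73. No library of one GC stage overlapped another stage. In early GC against naive cells it fell by 4.78 ± 0.14 log2 (adjusted p = 1.05e-18). Ccr6 fell by another 1.52 ± 0.14 from early to peak (adjusted p = 9.70e-08) and by 0.72 ± 0.14 from peak to late (adjusted p = 4.18e-04, between 2.74e-04 and 0.109 over the alternatives, the highest with those groups alone).

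Outside the GC, Ccr6 moved less. It rose at 4 h in vitro to 8.54, 8.54 and 8.41, by 0.92 ± 0.14 log2 over naive cells (adjusted p = 1.96e-06), and was the one receptor besides Cxcr3 that was higher at that time. It then fell by 1.92 ± 0.14 to 12 h (adjusted p = 6.69e-11), where the libraries read 6.63, 6.55 and 6.54. All 12 h and 24 h libraries were under the naive ones. In vivo activated cells differed from naive cells by 0.18 ± 0.14 (adjusted p = 0.229, between 0.0192 and 0.542 over the alternatives).

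Cxcr3, a receptor for interferon-induced chemokines, was high in a single group. In vivo activated libraries read 5.50, 5.17 and 5.15 log2, while every other library of the series lay between -1.91 and 0.99. Naive libraries read -0.58, -0.52 and 0.06. Cxcr3 rose by 5.62 ± 0.26 log2 over naive cells (adjusted p = 2.64e-15), or by 4.47 on the log2(value + 1) scale, and exceeded 24 h in vitro cells by 5.27 ± 0.26 (adjusted p = 3.44e-14). In peak GC against in vivo activated cells it fell by 5.73 ± 0.26. Since T cells and NK cells also carry CXCR3, their markers are given beside it. The 8 NK cell markers summed to 4.68 to 6.55 CPM in in vivo activated libraries and 53 to 92.9 CPM in naive ones. The 9 T cell markers in the files summed to 216 to 224 CPM against 51.4 to 58.6 CPM. Of the 7 tested 2 were higher and 3 lower, against 39.2% and 40.1% of all genes. The sum was 130 to 135 CPM in early, 181 to 224 in peak and 203 to 243 in late GC libraries. In vitro it was 187 to 197 CPM at 4 h, 169 to 182 at 12 h and 187 to 208 at 24 h. Lck, which made up most of the sum in in vivo activated libraries, read 7.67 to 7.71 log2 there against 5.32 to 5.44 in naive libraries. Cd5, which some B cells carry too, read 2.90 to 3.04 against 0.56 to 0.71. Cd3e, of the T cell receptor complex, read -1.94 to -1.16 against -0.15 to 1.27. The part of such cells in the Cxcr3 level was not tested.

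Among the low groups Cxcr3 moved little. At 12 h in vitro it read 0.99, 0.66 and 0.66, higher than in naive cells by 1.12 ± 0.26 log2 (adjusted p = 4.30e-04). Its rise at 4 h by 0.68 ± 0.26 (adjusted p = 0.021) had libraries that overlapped the naive ones, and it was lost without either of naive libraries 1 and 2 or either of 4 h libraries 1 and 2 (adjusted p = 0.0649 to 0.11). The fall from 12 h to 24 h by 0.76 ± 0.26 (adjusted p = 0.0157) was lost without 12 h library 1 (adjusted p = 0.0696) or 24 h library 1 (adjusted p = 0.0544). Late GC libraries, at -1.91, -1.56 and -0.91, were the lowest, and Cxcr3 fell by 1.0 ± 0.26 from peak to late GC (adjusted p = 0.00531) and by 1.03 ± 0.26 from early to late GC (adjusted p = 0.00368). With those groups alone the adjusted p values were 0.103 and 0.079. These differences concern levels at or under about 1 CPM.

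Cxcr7, the scavenger of CXCL12 that is known from marginal zone B cells, was highest in naive cells. Naive libraries read 6.65, 5.91 and 6.09 log2. The level was lower in every other group: 3.72, 3.0 and 3.27 in in vivo activated cells, 2.73, 2.71 and 3.51 at 4 h, 1.36, 0.96 and 1.73 at 12 h and 0.78, 0.37 and 0.93 at 24 h. None of the 9 GC libraries reached 1 CPM: early ones read -3.56, -1.33 and -3.0, peak ones -3.52, -3.13 and -5.12, and late ones -2.09, -2.42 and -1.33. Naive libraries stood above all others and GC libraries below all others. Cxcr7 fell by 10.14 ± 0.49 log2 in peak GC against naive cells (adjusted p = 3.20e-14). Since 1 peak library was under the floor, the size depends on how low values are treated, and on the log2(value + 1) scale the fall was by 6.13.

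By 4 h in culture Cxcr7 had fallen by 3.23 ± 0.49 log2 (adjusted p = 3.84e-06) and by 24 h by 5.52 ± 0.49 (adjusted p = 7.78e-10). In in vivo activated cells it fell by 2.89 ± 0.49 against naive cells (adjusted p = 1.61e-05), and that group did not differ from the 4 h group beyond their spread. Late GC cells were higher than peak GC cells by 1.97 ± 0.49 (adjusted p = 0.00445), all values being under 1 CPM, and on the log2(value + 1) scale this was 0.24 (adjusted p = 0.383). With those groups alone the adjusted p was 0.0759, and the range over the alternatives was 0.0027 to 0.383. The part of the macrophage, neutrophil and erythroid RNA that was higher in late GC libraries was not tested here either.

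Ccrl1, the scavenger of the CCR7 ligands, was detected at 1 CPM or more in all 9 GC libraries and in no other. Early GC libraries read 3.44, 3.77 and 3.48 log2, peak ones 3.98, 4.21 and 4.43, and late ones 3.68, 4.28 and 4.26. Naive libraries read -2.04, -2.47 and -0.93, and in vivo activated ones -3.69, -3.97 and -5.97. The gap between the lowest GC library and the highest other library was several log2 units. Ccrl1 rose by 6.02 ± 0.47 log2 in peak GC over naive cells (adjusted p = 3.49e-11) and by 8.75 ± 0.47 over in vivo activated cells (adjusted p = 7.84e-14), or by 3.90 and 4.21 on the log2(value + 1) scale. It passed the filter on low values only through its GC libraries, so that a difference of that kind was required for it to be tested.

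No difference in Ccrl1 between GC stages passed the test in the main fit. Late minus early was 0.51 ± 0.47 log2 (adjusted p = 0.42), but 0.47 on the log2(value + 1) scale (adjusted p = 0.00857). Over the alternatives the adjusted p of late against early ran from 0.00857 to 0.679. Peak minus early was 0.64 ± 0.47 log2 with no overlap of libraries (adjusted p = 0.42), and the fit on the log2(value + 1) scale gave 0.60 (adjusted p = 0.00325) and that of those groups alone 0.64 (adjusted p = 0.0341), with a range of 0.00325 to 0.693 over the alternatives. Below 1 CPM, Ccrl1 fell by 2.73 ± 0.47 in in vivo activated against naive cells (adjusted p = 1.24e-05), and fell by 0.31 on the log2(value + 1) scale. Its differences from naive at 4 h, 12 h and 24 h, of -1.78, -1.40 and -1.54, passed the test but were lost on that scale (adjusted p = 0.0709, 0.117 and 0.0874), and that at 12 h also without naive library 3 (0.0768) or 12 h library 2 (0.0645).

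Ccrl1 (chr9:104084157-104126933, minus strand) lies within Acad11, an acyl-CoA dehydrogenase gene on the opposite strand. Acad11 read 4.05 to 4.14 log2 in naive libraries and 3.06 to 3.45 in peak GC libraries, so it was lower where Ccrl1 was higher. The annotation lists 2 further gene models that overlap Ccrl1. As the strand setting of the counting is not given, the part of reads from these genes in the Ccrl1 values was not tested, which bears most on its values under 1 CPM. The other members lie on several chromosomes in GRCm38: Ccr6 at chr17:8236043-8257141, Ccr7 at chr11:99144196-99155077, Cxcr3 at chrX:101731535-101734269, Cxcr5 at chr9:44511787-44561877, and Cxcr4 and Cxcr7 on chromosome 1 at 128588199 to 128592293 and at 90203980 to 90216751.

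**Figure D4:**
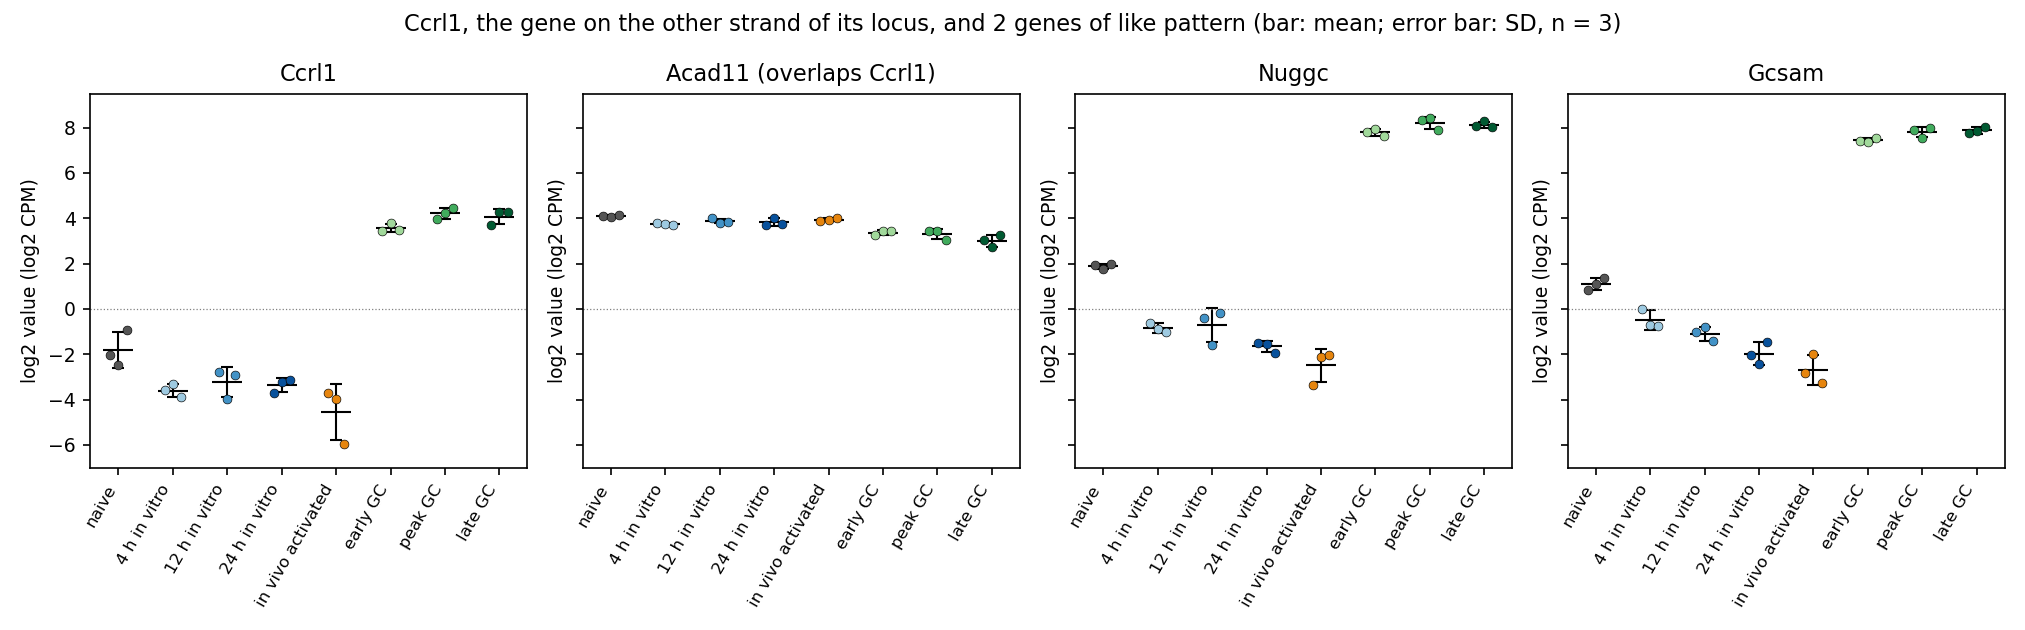
Deposited log2 values (vertical axis, log2 CPM) of Ccrl1, of Acad11 on the opposite strand of the same locus, and of Nuggc and Gcsam, in 8 groups, with points for libraries, a bar for the mean and an error bar for the SD (n = 3). Ccrl1, Nuggc and Gcsam are high in the GC libraries only, while Acad11 stays between 2.72 and 4.14 in all 24 libraries.

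Counted over the comparisons, changes of the receptors were about as frequent as changes of other genes. In peak GC against naive cells 5 of 7 receptors changed, 1 higher and 4 lower, while 79.7% of the 11885 genes tested changed, 40.5% higher and 39.3% lower. In in vivo activated against naive cells 6 changed, 1 higher and 5 lower (79.3% of all genes changed, 39.2% higher and 40.1% lower). In culture 6 changed at 4 h (78.0% of all genes), 7 at 12 h (80.9%) and 6 at 24 h (84.8%), all against the same naive libraries. The receptors that were lower at these times numbered 4, 6 and 6, against 39.1%, 39.2% and 42.5% of all genes. Those that were higher numbered 2, 1 and 0, against 38.9%, 41.7% and 42.2%. At each time 1 of the lower receptors was Ccrl1, which was under 1 CPM in all these libraries. Its calls were lost on the log2(value + 1) scale (adjusted p = 0.0709, 0.117 and 0.0874, limma). The median over the 7 was -0.73, -1.90 and -2.41 log2, and that over all genes -0.01, 0.03 and -0.01.

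From 4 h to 12 h 5 receptors fell and none rose (61.9% of all genes changed, 34.6% higher and 27.2% lower). From 12 h to 24 h 3 fell and none rose (57.3%, 22.5% and 34.8%), and from 4 h to 24 h 5 fell and none rose (76.0%, 36.8% and 39.2%). The fit to 12 h and 24 h alone called 6 in place of 3, adding Ccr6, Cxcr5 and Cxcr7. Early and peak GC cells were each compared with the same in vivo activated libraries, and 6 receptors changed in each, 2 higher (Cxcr4 and Ccrl1) and 4 lower (Ccr6, Ccr7, Cxcr3 and Cxcr7), where 69.5% and 69.2% of all genes changed. Of all genes 33.2% were higher and 36.4% lower in early GC cells, and 34.1% and 35.0% in peak GC cells. Within the GC, 1 receptor changed from early to peak (Ccr6, lower, where 13.2% of all genes changed, 5.77% higher and 7.42% lower), 4 from peak to late (Ccr6 and Cxcr3 lower, Ccr7 and Cxcr7 higher, where 32.6% changed, 12.0% higher and 20.6% lower) and 2 from early to late (Ccr6 and Cxcr3 lower, where 35.1% changed, 13.0% higher and 22.1% lower). With only the groups compared, these counts were 2, 0 and 1. At 4 h against naive the count went from 6 to 3 without 4 h library 1.

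**Figure D5:**
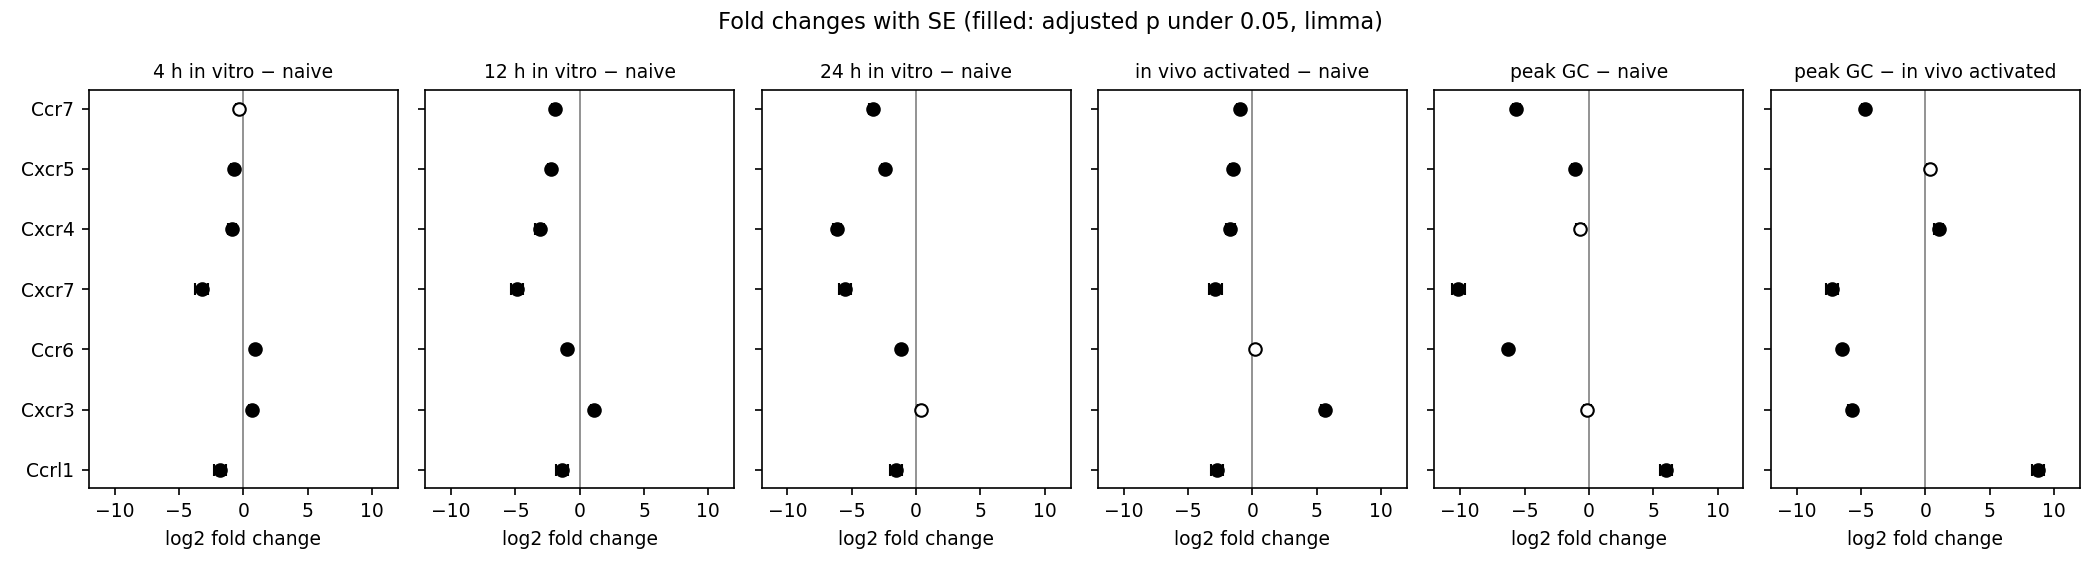
Log2 fold changes (horizontal axis) of the 7 receptors in 6 comparisons, with SE bars and filled points for an adjusted p under 0.05 in limma. Cxcr4 is the farthest left at 24 h against naive (-6.14), Cxcr3 the farthest right after in vivo activation (5.62), and Ccrl1 lies to the right in both peak GC comparisons (6.02 and 8.75).

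The other chemokine receptors and the ligands were read beside the members. Of 17 other receptors 11 were tested, and in peak GC against naive cells 3 rose and 6 fell, with a list median of -0.48 log2. Over all genes tested 40.5% rose and 39.3% fell there, with a median of 0.01. Ccr2, a monocyte receptor, rose by 2.51 ± 0.41 (adjusted p = 9.03e-06) and Cx3cr1, found on monocytes and NK cells, by 2.40 ± 0.58 (adjusted p = 6.30e-04), while Ccr1, a receptor of myeloid cells, fell by 4.93 ± 0.55 (adjusted p = 1.27e-07). At 24 h in vitro none rose and 10 fell, against 42.2% and 42.5% of all genes. From early to late GC 7 rose and 1 fell, against 13.0% and 22.1% of all genes, including Ccrl2 (higher by 0.86 ± 0.16, adjusted p = 2.76e-04) and Ccr9 (higher by 1.41 ± 0.28, adjusted p = 5.34e-04). In that comparison 4 of 10 tested macrophage markers, 4 of 6 neutrophil markers and 5 of 7 T cell markers were also higher and none lower, and their part in the receptor changes was not tested. Of 11 ligands of the members only Ccl25 was tested, with at most 0.83 log2 in any library. Ccl20 and 3 Ccl21 genes were under the floor in all 24 libraries.

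The proteins that carry the receptor signal changed in both directions. Of 28 signalling and desensitisation genes tested, 9 rose and 14 fell in peak GC against naive cells (median -0.13 log2), against 40.5% and 39.3% of all genes, and 4 rose and 22 fell at 24 h in vitro (median -0.88), against 42.2% and 42.5%. Rap1a, a small GTPase of integrin activation, rose by 1.02 ± 0.07 in peak GC cells (adjusted p = 1.36e-12), while Rassf5, its effector, fell by 1.71 ± 0.05 (adjusted p = 7.02e-20) and Adrbk2, a receptor kinase also called Grk3, fell by 4.37 ± 0.23 (adjusted p = 3.44e-14). At 24 h Rasgrp2, an activator of Rap1, fell by 3.76 ± 0.10 (adjusted p = 1.14e-19). RGS proteins shorten G protein signals, and of 9 tested 5 rose and 3 fell in peak GC against naive cells (median 0.30). Rgs13 rose there by 4.86 ± 0.14 (adjusted p = 1.65e-18) and again from early to late GC by 1.39 ± 0.14 (adjusted p = 1.56e-07), and Rgs10 by 2.50 ± 0.08 (adjusted p = 5.83e-18) and 0.93 ± 0.08 (adjusted p = 2.51e-08).

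Of 11 other receptors that position B cells, 10 fell and 1 rose in peak GC against naive cells (median -2.92 log2), where 39.3% of all genes fell and 40.5% rose. Against the same naive libraries 2 rose and 8 fell in in vivo activated cells, where 39.2% of all genes rose and 40.1% fell. In vitro 10 fell at each time, and 1, 0 and 0 rose at 4 h, 12 h and 24 h. Of all genes 39.1%, 39.2% and 42.5% fell at these times, and 38.9%, 41.7% and 42.2% rose. The fall was thus not limited to GC cells. The receptor that rose in peak GC cells was S1pr2, which holds cells in the GC, by 5.55 ± 0.10 (adjusted p = 1.26e-22). Gpr183, the oxysterol receptor that guides activated B cells to the outer follicle, fell by 3.96 ± 0.14 (adjusted p = 4.22e-16) and P2ry10 by 3.26 ± 0.10 (adjusted p = 4.80e-18). At 24 h Cnr2, a cannabinoid receptor, fell by 4.38 ± 0.15 (adjusted p = 1.32e-16). Of 10 entry and adhesion genes 3 rose and 5 fell in peak GC cells (median -0.61), with integrin Itgb1 higher by 1.36 ± 0.06 (adjusted p = 5.44e-16) and Itgb7, of a gut-homing integrin, which fell by 4.03 ± 0.18 (adjusted p = 1.11e-14).

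Transcription factors with known links to these receptors were also read. Of 11 tested, 4 rose and 7 fell in peak GC against naive cells (median -0.64), against 40.5% and 39.3% of all genes, with Klf2, a factor of lymphocyte quiescence and trafficking, which fell by 3.97 ± 0.21 (adjusted p = 1.35e-12) and Pou2af1, the coactivator of the octamer factors, higher by 0.91 ± 0.05 (adjusted p = 2.24e-13). At 24 h 1 rose and 7 fell, against 42.2% and 42.5% of all genes, with Foxo1, which takes part in the dark zone program, which fell by 2.93 ± 0.05 (adjusted p = 6.84e-23). Foxo1 was at 8.53 to 8.68 log2 in the GC group means and at 6.31 ± 0.09 at 24 h. Tbx21, known to act on Cxcr3, read 1.79 ± 0.10 in in vivo activated cells and 1.98 ± 0.28 in naive cells. Of 12 dark zone genes 11 rose and 1 (Foxo1) fell in peak GC against naive cells, most of them mitotic genes (median 5.01), and of 12 light zone genes 3 rose and 7 fell (median -0.65), beside the same shares of all genes. The dark zone list also had 9 higher and 3 lower in in vivo activated cells (median 4.31) and at 24 h in vitro (median 3.12), where Cxcr4 was lowest. Of all genes 39.2% were higher and 40.1% lower in in vivo activated cells, and 42.2% and 42.5% at 24 h. From early to late GC 1 dark zone gene (Foxo1, by 0.15 ± 0.05, adjusted p = 0.0258) rose and none fell, and 2 light zone genes rose and 3 fell, against 13.0% and 22.1% of all genes.

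For each receptor, the genes of most similar pattern were taken by Pearson r over the 8 group means, among 8949 genes with at least 10 CPM in their highest group. With 8 points that share libraries and scaling, r is a description and says nothing of shared function. Ccrl1 was matched by Nuggc (0.995), Scaf11 (0.994) and Gcsam (0.994), of which Nuggc and Gcsam are GC markers that went from -2.49 to 8.20 and from -2.69 to 7.87 over the group means, and Scaf11 only from 8.40 to 9.70. Cxcr4 was matched by Necap1 (0.997), Myof (0.991) and Ddit3 (0.986). Ccr6 was matched by Arhgap24 (0.991), Pde8a (0.982) and Tet2 (0.981), and Ccr7 by B3gnt5 (0.988), Myc (0.981) and Glcci1 (0.977). Cxcr7 was matched by Notch1 (0.991), a Notch receptor, Lrrc33 (0.990) and Cdc42se1 (0.987). Cxcr5 was matched by Gimap9 (0.987), Slc2a1 (0.984) and Slc37a1 (0.975). The matches of Cxcr3 were weaker, with Eps15 (0.962), Sdf2 (0.952) and Plp2 (0.943).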

How the data were processed

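Sorted splenic B cells were measured in 24 libraries, 3 in each of 8 groups, grouped by the cell type named in the labels. RNA was made into libraries with a stranded mRNA kit and read as pairs of 75 bases, per the labels' protocols. The submitters' processing notes name mm10, the aligner STAR 2.6.0c, the trimmer cutadapt 1.8.3, FastQC 0.11.5, limma, and featureCounts beside Subread 1.6.2. Their options are not given in the sources used here. The values deposited by the authors are log2 values: their linear forms sum to 990678 to 1008194 per library, as CPM would. The values also show that libraries share nearly one distribution (the value at rank 1000 varied by 0.030 log2) and that the mean of each gene is equal over the libraries of each replicate number (within 0.0009 log2). The spread between libraries may therefore be smaller than before those steps, and depth and limits of detection are unknown.

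Genes with at least 1 CPM in at least 3 libraries (11885 of 23420) were tested with limma 3.58.1 in R 4.3.3 on the deposited values, in a fit of all 24 libraries by group, with trended, robustly moderated variances (16 residual degrees of freedom). The equal means per replicate number leave fewer degrees of freedom than the 16 counted, so the p values of this fit may be too small. Each adjusted p is from limma, two-sided, adjusted by Benjamini-Hochberg over all genes tested in a comparison. The threshold for a change was 0.05. The scripts were tested on simulated data. Differences between 2 receptors within a library were tested by exact permutation over libraries. Levels per kb used exon lengths of GENCODE for GRCm38. Python 3.11.15 was used for tables (pandas 2.3.3, with numpy 2.4.6) and for plots (matplotlib 3.10.9).

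The 7 receptors, the gene lists, the markers and the comparisons were chosen with earlier results of these data known. The genes named are the 7 receptors, the 3 most similar genes of each, up to 2 changed members of a list in each direction with the smallest p, and the marker genes given beside a result. One gene that this rule names is not reported here. Alternatives were no filter, a filter at 10 CPM, no trend or robust moderation, only the groups compared, log2(value + 1), centring on the median, the replicate number as a block, and leaving out each library.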

Additional observations from a re-analysis of the deposited data

How the results depend on the processing

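Over 13 comparisons of 7 receptors, no filter, a filter at 10 CPM, no trend or robust moderation and centring each left all 91 calls the same. The filters and the moderation cannot change a fold change itself, so under them only the call could differ. Centring also kept all 91 directions. Since the deposited values have equal means over each replicate number for every gene, no check on them can show whether the numbers pair the libraries (deviations of same-numbered libraries correlated between -0.37 and 0.11), and a fit with the replicate number as a block has little left to remove: its 91 calls were the same, with 5 receptors changed in peak GC against naive cells, which says nothing of stability. The receptor differences within a library kept their direction under all 64 alternatives, and their exact tests cannot pass 0.05 at this size. Of these alternatives, the 8 with the replicate number as a block repeat the main value by construction and say nothing of stability. With only the groups compared, the number of receptors changed was 6 in place of 5 in peak GC, 7 in place of 6 in in vivo activated and 7 in place of 6 in 4 h cells against naive, 5 in place of 6 in early GC against in vivo activated cells, 6 in place of 3 from 12 h to 24 h, 2 in place of 1 from early to peak GC, 0 in place of 4 from peak to late GC (limma, with 4 at an unadjusted p under 0.05) and 1 in place of 2 from early to late GC. On the log2(value + 1) scale it was 5, 6 and 5 at 4 h, 12 h and 24 h against naive, 2 from early to peak, 3 from peak to late and 3 from early to late GC. Leaving out single libraries gave 3 to 6 at 4 h and 6 to 7 at 12 h against naive, 2 to 3 from 12 h to 24 h, 5 to 6 in early and in peak GC against in vivo activated cells, 1 to 2 from early to peak, 3 to 4 from peak to late and 2 to 3 from early to late GC, and the main counts in the other comparisons. Of 546 fold changes with a library left out, 15 lost a call, 4 gained one and 18 changed sign, all of the last between values that did not pass the test. Those that changed sign, with their range when each library was left out, were Cxcr3 in peak GC against naive (-0.23 to 0.09) and against early GC (-0.17 to 0.15), Ccrl1 from 12 h to 24 h (-0.51 to 0.09) and from peak to late GC (-0.25 to 0.06), Cxcr4 from early to peak GC (-0.22 to 0.41), and Cxcr5 from early to peak (-0.20 to 0.29), peak to late (-0.31 to 0.14) and early to late GC (-0.26 to 0.18). Calls gained were Ccr7 from early to peak GC without peak library 3 (-0.80, adjusted p = 0.0272), Cxcr7 there without early library 1 (-1.76, 0.027) or peak library 2 (-1.69, 0.0434), and Cxcr7 from early to late GC without early library 2 (1.33, 0.0304). Over all genes, 1568 changed from early to peak GC against 610 with those groups alone and 1034 without early library 2, 3877 from peak to late GC against 1207 with those groups alone and 2523 with the 10 CPM filter, which tests fewer genes, and 4169 from early to late GC against 2381 with those groups alone. The cause was not tested. On the log2(value + 1) scale 9210, 9544 and 10008 of 11885 genes changed at 4 h, 12 h and 24 h against naive. The main fit gave 9269, 9618 and 10074. From early to peak, peak to late and early to late GC that scale gave 1693, 3956 and 4214 genes. With 3 libraries a group and unknown depth, values under 1 CPM (Cxcr7 in GC cells, Ccrl1 outside them) limit the size of a fold.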
